A study of Mus musculus with 28 samples.

Results

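The genes described here are 30 mouse genes of cholesterol synthesis, sterol transport and the control of the transcription factor SREBP2. They were taken by symbol from a list, and each was matched to an Ensembl gene in both count tables. All 30 were found among the 15423 genes of the first table and the 56941 of the second, and all 30 passed the low-count filter in both experiments. They comprise 9 precursor enzymes, 11 enzymes that lead from squalene to cholesterol, 6 proteins that control SREBP2 and 4 proteins of sterol transport and storage. The precursor enzymes lead to squalene, except for Ggps1, which lies on a side branch. They were measured by sequencing of messenger RNA in 28 libraries of bone marrow-derived macrophages, in 2 experiments. The first held macrophages of mice without Irgm1 and without the type I interferon receptor (labelled Irgm_IFNAR-KO), of mice without Irgm1 (Irgm1-KO) and of wild-type mice (WT), and each of these 3 groups had 4 libraries. The interferon-inducible GTPase Irgm1 belongs to the immunity-related family, and no group lacked the receptor alone. The design asks how far the transcript changes seen without Irgm1 depend on type I interferon. The second held Irgm1KO and WT macrophages, each with 50 µM fenofibrate or as a control, which makes 4 groups of 4 libraries. Fenofibrate, used to lower blood lipids, is an agonist of PPAR alpha. Both mutant lines had been backcrossed to C57BL/6, and the marrow came from mice of both sexes aged 2 to 4 months. In every group the marrow cells were cultured 6 days in L929 cell-conditioned medium, which was left out of the serum-containing medium for the last 24 h. The labels give neither the length of the fenofibrate exposure nor what control cells received, and they do not say whether replicates are separate animals. A p-value here therefore reflects how far these libraries differ among themselves, and the labels do not say how much of that is technical. In the second experiment Xist, a transcript of female cells, differed widely within every group. The 4 libraries of such a group were therefore not all from the same animal.

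Cells make cholesterol from acetyl-CoA by way of mevalonate, the isoprenoids, squalene and lanosterol. When sterols in the endoplasmic reticulum are low, Scap carries the SREBP2 precursor to the Golgi, where the site-1 and site-2 proteases Mbtps1 and Mbtps2 release the fragment that switches on the genes of synthesis and uptake. When sterols are high, Insig1 and Insig2 hold Scap back. In macrophages, SREBP2 acts opposite to the liver X receptors (LXR), which induce the export of cholesterol.

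Each library of the first experiment held 48.7 to 70.5 M counts, and each of the second 82.4 to 120.8 M. Levels are given in CPM, a gene's counts in proportion to the TMM-scaled library total. Irgm1 counts were lower in every library labelled as lacking the gene, at 641 to 786 CPM in Irgm_IFNAR-KO, 628 to 839 CPM in Irgm1-KO and 1189 to 1352 CPM in WT, and in the second experiment at 1017 to 1144 CPM in Irgm1KO with fenofibrate, 991 to 1040.3 CPM in Irgm1KO controls, 1469.8 to 1673 CPM in WT with fenofibrate and 1514 to 1669 CPM in WT controls. Ifnar1, a receptor subunit, was at 114, 109, 53.1 and 108 CPM in Irgm_IFNAR-KO, 112 to 127 CPM in Irgm1-KO and 128 to 141 CPM in WT, so that replicate 3 of Irgm_IFNAR-KO was far below the rest of its group; the difference from WT was not called (adjusted p = 0.119). The counts cover the whole gene and the labels do not name the deleted part, so these totals do not check the receptor deletion. Xist, a transcript of female cells, was at 97.2 to 197 CPM in Irgm_IFNAR-KO, 97.9 to 230 CPM in Irgm1-KO and 50.8 to 231 CPM in WT. By replicate number, Xist in the second experiment was at 86.0, 84.9, 1.07 and 116 CPM in Irgm1KO with fenofibrate. In Irgm1KO controls it was at 73.2, 143, 1.31 and 103 CPM. It was at 51.8, 0, 137 and 0 CPM in WT with fenofibrate and 50.2, 1.78, 110 and 0.0084 CPM in WT controls. Xist was fitted as a covariate in an alternative, and in the first experiment the library of lowest Xist in each group (replicate 4 of Irgm_IFNAR-KO, replicate 3 of Irgm1-KO and replicate 2 of WT) was also left out; its part in the results was not tested further. All 8 macrophage markers were present and tested. In Irgm1-KO against WT 1 of them was higher, 3 were lower and 4 were not called (40.4% of all tested genes called). Their median log2 fold change there was -0.22, from -2.06 to 0.82. In Irgm_IFNAR-KO against Irgm1-KO 4 were higher and 3 lower (42.8% of all called). Of the 8, 1 was higher and 5 were lower in Irgm1KO controls against WT controls (53.4% of all called). With fenofibrate 2 were higher and 4 lower in Irgm1KO (45.7% of all called), and 1 higher and 5 lower in WT (35% of all called). In the summed level of the 8 the most abundant markers weigh most. That sum was 28663 to 39956 CPM in Irgm_IFNAR-KO, 9428 to 14606 CPM in Irgm1-KO and 21161 to 41487 CPM in WT. In the second experiment it was 14989 to 18387 CPM in Irgm1KO with fenofibrate, 10544 to 12746 CPM in Irgm1KO controls, 13949 to 22491 CPM in WT with fenofibrate and 22139 to 30726 CPM in WT controls. Dendritic cell marker sums (3 of 6 markers tested, Siglech absent) were 57.7 to 65.7 CPM in Irgm_IFNAR-KO, 21.6 to 26.04 CPM in Irgm1-KO and 46.0 to 54.3 CPM in WT, and osteoclast marker sums (4 of 6 tested, Oscar and Calcr absent) were 7.03 to 8.72 CPM in Irgm_IFNAR-KO, 20.1 to 21.1 CPM in Irgm1-KO and 11.5 to 16.7 CPM in WT. Of the 3 tested dendritic cell markers, 1 was higher and 1 lower in Irgm1-KO than in WT (40.4% of all called). Their log2 fold changes there ran from -1.25 to 0.63. In Irgm_IFNAR-KO against Irgm1-KO 2 were higher and none lower (42.8% of all called). In the second experiment dendritic cell sums were 55.8 to 71.7 CPM in Irgm1KO with fenofibrate, 54.8 to 58.95 CPM in Irgm1KO controls, 8.52 to 24.7 CPM in WT with fenofibrate and 27.3 to 45.7 CPM in WT controls. Of the 4 markers tested there, 1 was higher and none lower in Irgm1KO controls than in WT controls (53.4% of all called). Osteoclast sums there were 51.2 to 103 CPM in Irgm1KO with fenofibrate, 32.5 to 50.2 CPM in Irgm1KO controls, 13.1 to 18 CPM in WT with fenofibrate and 10.5 to 13.8 CPM in WT controls. Neutrophil marker sums (5 of 7 tested) were 13.3 to 23.2 CPM in Irgm_IFNAR-KO, 4.61 to 8.66 CPM in Irgm1-KO and 13.8 to 35.4 CPM in WT, and those of B and T cells stayed at or below 0.13 CPM in every library. Neutrophil sums in the second experiment (2 of 7 tested) were 0.861 to 2.48 CPM in Irgm1KO with fenofibrate, 0.304 to 0.582 CPM in Irgm1KO controls, 2.15 to 2.89 CPM in WT with fenofibrate and 2.22 to 5.22 CPM in WT controls. Erythroid and mast cell sums were 1.30 to 1.37 CPM in Irgm_IFNAR-KO, 0.135 to 0.382 CPM in Irgm1-KO and 0.448 to 1.08 CPM in WT, and at most 0.608 CPM in the second experiment, and stromal sums were at most 1.10 CPM in every library. The part of these markers in the results was not tested, and in bulk libraries fewer cells of a type and less RNA per cell cannot be told apart.

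Promoter sequences of RefSeq (build GRCm38.p6, 250 bases before to 50 after a start site) were held for 25 of the 30 genes. The table has no entry for Fdps, Fdft1, Sqle, Npc1 and Stard4. Of the 8 genes with an entry and the smallest p between Irgm_IFNAR-KO and Irgm1-KO, 4 are printed. They were chosen after their values were seen, because they stand for the separate roles: Hmgcs1 makes the precursor of mevalonate, Idi1 isomerises its isoprenoid product, Cyp51 removes a methyl group from lanosterol, and Insig1 holds SREBP2 back. The sequences run 5′ to 3′ on the gene's strand. Capitals mark CCAAT boxes (CCAAT, or ATTGG where the box lies on the opposite strand) and, in Hmgcs1, a match to the sterol regulatory element searched as TCACNCCAC. The windows are Hmgcs1 at chr13:119690101-119690400 (plus strand), Idi1 at chr13:8885356-8885655 (plus), Cyp51 at chr5:4104648-4104947 (minus) and Insig1 at chr5:28071162-28071461 (plus).
Hmgcs1: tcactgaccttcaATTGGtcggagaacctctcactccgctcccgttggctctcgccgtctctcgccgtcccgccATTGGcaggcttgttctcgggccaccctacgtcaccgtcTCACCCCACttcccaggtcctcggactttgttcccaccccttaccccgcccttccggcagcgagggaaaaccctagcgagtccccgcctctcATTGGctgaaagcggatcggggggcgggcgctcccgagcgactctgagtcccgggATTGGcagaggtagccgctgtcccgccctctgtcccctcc
Idi1: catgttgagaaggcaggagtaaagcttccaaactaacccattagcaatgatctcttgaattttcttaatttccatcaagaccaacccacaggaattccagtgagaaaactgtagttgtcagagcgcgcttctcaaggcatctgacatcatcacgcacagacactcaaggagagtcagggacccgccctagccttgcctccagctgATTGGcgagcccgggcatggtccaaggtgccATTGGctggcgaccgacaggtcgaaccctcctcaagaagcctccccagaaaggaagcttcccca
Cyp51: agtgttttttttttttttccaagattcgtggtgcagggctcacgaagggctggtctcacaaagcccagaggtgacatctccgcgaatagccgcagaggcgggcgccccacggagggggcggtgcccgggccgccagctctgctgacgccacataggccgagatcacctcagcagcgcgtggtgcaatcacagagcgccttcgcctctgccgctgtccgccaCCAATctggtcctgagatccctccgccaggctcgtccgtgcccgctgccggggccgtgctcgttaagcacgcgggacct
Insig1: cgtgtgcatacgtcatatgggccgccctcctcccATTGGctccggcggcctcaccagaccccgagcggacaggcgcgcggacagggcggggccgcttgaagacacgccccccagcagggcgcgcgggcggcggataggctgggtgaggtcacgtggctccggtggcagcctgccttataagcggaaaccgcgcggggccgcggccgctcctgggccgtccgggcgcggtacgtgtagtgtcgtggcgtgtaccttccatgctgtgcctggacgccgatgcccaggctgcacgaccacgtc
The Hmgcs1 window held TCACCCCAC from base -137 and 4 CCAAT boxes, with their first bases at -237, -176, -45 and 11. Idi1 held CCAAT boxes at -45 and -14, Cyp51 at -29 and Insig1 at -216. On either strand, CCAAT was found in 21 of the 25 genes (84.0%), against 41.1% of 27025 genes in the table, and the GC box GGGCGG in 22 of 25 (88.0%), against 38.2% of all. TCACNCCAC was found in 1 of 25 (4.0%), against 1.44% of all genes. The 27025 genes were not limited to those that passed the low-count filter, as all 30 members did. The share among tested genes was not taken. CCAAT was held by 12 of 15 genes called lower in Irgm1-KO in the first experiment and by 9 of the 10 others. In the second experiment it was held by 15 of 19 genes called lower in Irgm1KO controls and by 6 of the 6 others. A match describes these letters in this window and is not a binding site.

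Without Irgm1, most of the 30 transcripts fell. In the first experiment 19 were called lower and 1 higher in Irgm1-KO than in WT (edgeR quasi-likelihood test, Benjamini-Hochberg adjusted p below 0.05 over all genes), while 20.7% of all 13998 tested genes were called lower and 19.8% higher (40.4% in either direction). The median log2 fold change over the 30 was -0.54, against -0.019 over all tested genes. In the second experiment 24 were called lower and none higher in Irgm1KO controls than in WT controls, against 26.1% and 27.3% of 15429 tested genes (53.4% in either direction). With unadjusted p under 0.05 no further gene was higher there, and the DESeq2 Wald test also called none higher. The median over the 30 was -0.42, against 0.0035 over all tested genes. Where both Irgm1 and the interferon receptor were lacking, the transcripts stood above those of Irgm1-KO: 21 were called higher and 2 lower, against 21.5% and 21.3% of all tested genes (42.8% in either direction), with a median of 0.62 against 0.022. Without the 3 libraries of lowest Xist, 21 were lower and 1 higher in Irgm1-KO than in WT (51.7% of all tested genes called). Mbtps2 and Dhcr7 were added (adjusted p = 0.0167 and 0.0146). In Irgm_IFNAR-KO against Irgm1-KO, 20 were then higher and 2 lower (54.7% of all called), with Fdps lost. With log2 Xist as a covariate 24 were lower and 2 higher in Irgm1-KO against WT (60.6% of all called). The covariate gave 24 higher and 2 lower in Irgm_IFNAR-KO against Irgm1-KO (64.2% of all called). It gave 24 lower in Irgm1KO controls against WT controls (52.9% of all called). The contrasts with WT and with Irgm_IFNAR-KO share the 4 Irgm1-KO libraries, so their opposite signs are not independent. In Irgm1-KO all libraries lay below all of WT for 19 genes and above for 1 (17.5% and 17.5% of all tested genes). Irgm_IFNAR-KO lay above Irgm1-KO in this way for 21 and below for 2 (21.2% and 21.1% of all). It lay above WT for 5 and below for 1 (7.5% and 10.4% of all). Irgm1KO controls lay below WT controls for 23, with overlap in the other 7 (26.3% of all lay below and 27.8% above). These shares belong beside each statement on overlap.

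**Figure D1:**
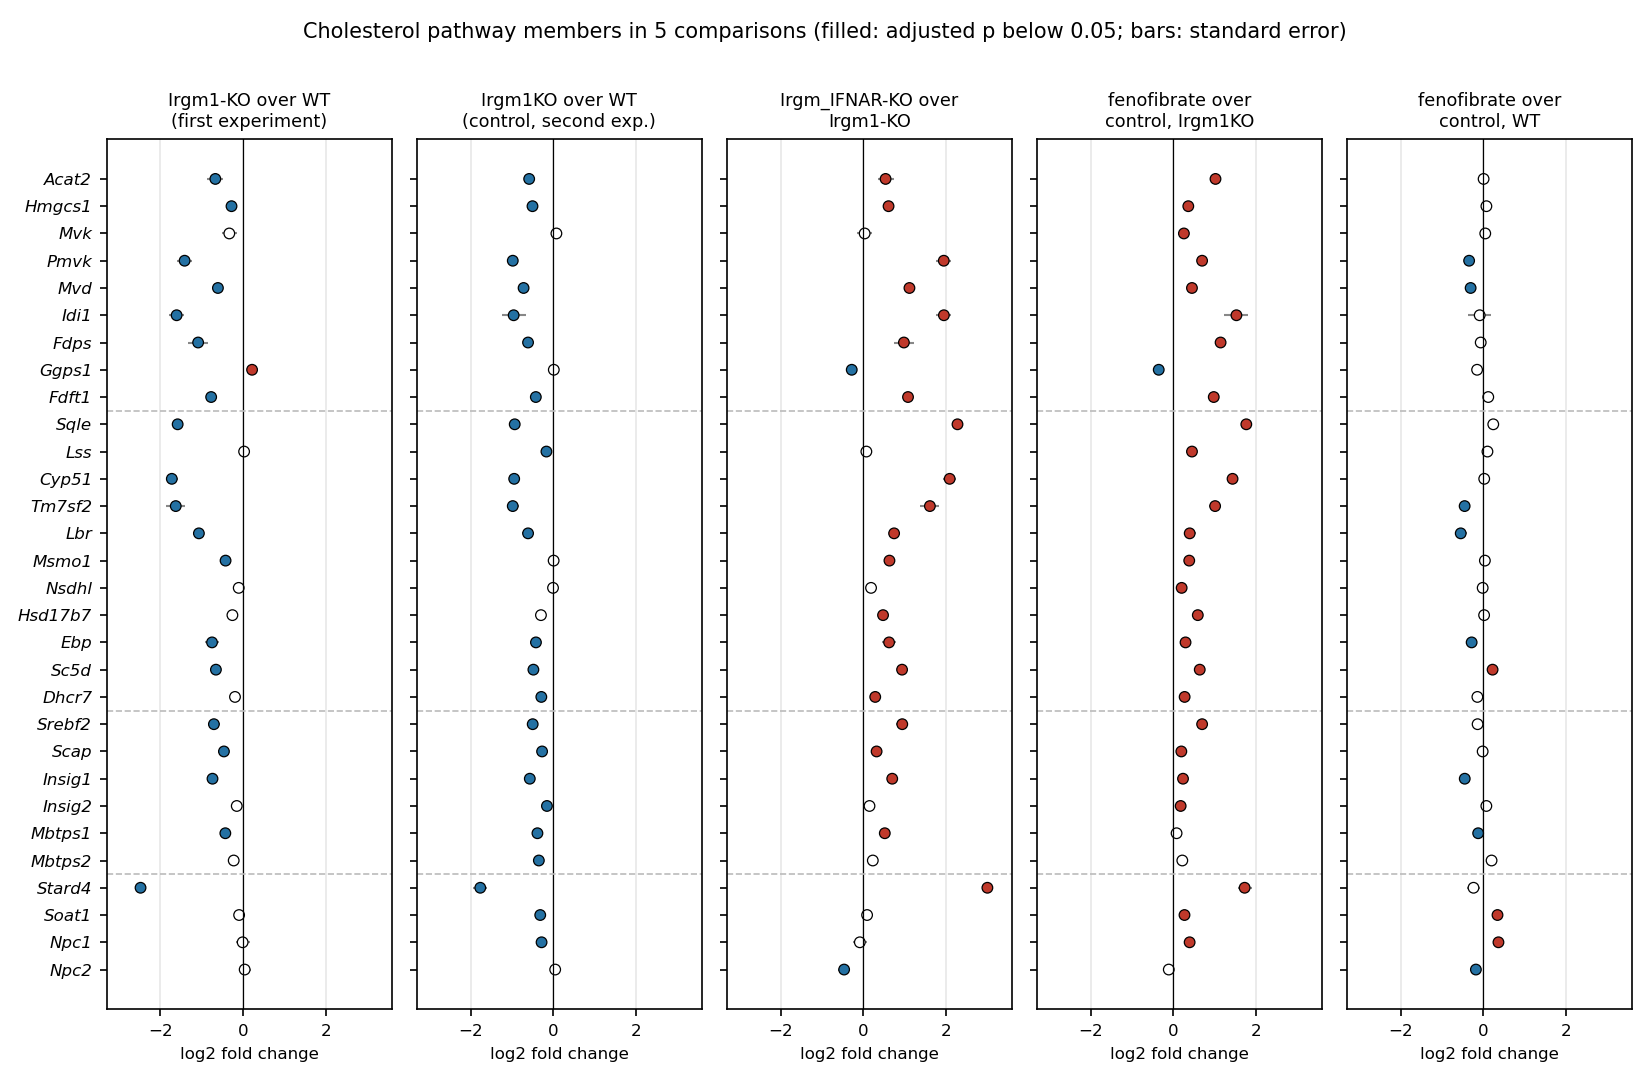
Log2 fold changes of the 30 genes in 5 comparisons, in pathway order from top to bottom, with dashed lines between the precursor enzymes, the ring enzymes, the SREBP2 control genes and the transport genes. Bars are standard errors, and filled points passed the test (red higher, blue lower). Stard4, with -2.48 and -1.77 in the knockout panels, and 3.01 in Irgm_IFNAR-KO over Irgm1-KO, lies farthest from 0.

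The levels covered a wide range. Per kilobase of exon in WT of the first experiment, Npc2 was highest with 438 ± 87.7 CPM per kb (SD, n = 4), followed by Soat1 with 35.01 ± 3.12, Ebp with 33.8 ± 7.61, Npc1 with 21.6 ± 4.34 and Pmvk with 19.1 ± 5.28 CPM per kb. Soat1 and Ebp differed by less than their spread. The lowest were Hsd17b7 with 0.684 ± 0.0501, Idi1 with 0.586 ± 0.140 and Fdps with 0.127 ± 0.0145 CPM per kb. In WT controls of the second experiment Fdps stood at 4.63 ± 0.593 CPM per kb, which ranked 19 of 30, whereas it ranked 30 in the first. The tables were normalised apart. Fdps shares 26.7% of its exon bases with the gene Gm43738 on the same strand in the annotation used for lengths, and whether that accounts for the difference between tables was not tested.

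Of the 9 precursor enzymes, 7 were lower in Irgm1-KO than in WT in the first experiment, 1 was higher and 1 was not called. The shares of all tested genes were 20.7% lower and 19.8% higher. Acat2 joins acetyl-CoA units at the entry of the pathway. It was at 2.85, 3.34, 3.605 and 4.08 CPM in Irgm_IFNAR-KO, 2.02, 2.31, 2.76 and 2.43 CPM in Irgm1-KO and 3.07, 5.32, 2.83 and 3.97 CPM in WT. All Irgm1-KO libraries lay below all WT libraries, and the log2 fold change was -0.67 (SE 0.20, adjusted p = 0.0163). The Irgm_IFNAR-KO libraries lay above those of Irgm1-KO by 0.54 (SE 0.20, adjusted p = 0.0417), a call that was lost without any one of Irgm1-KO replicates 1, 2 or 4 or Irgm_IFNAR-KO replicates 2, 3 or 4 (adjusted p up to 0.11). Acat2 has a close copy in the mouse genome, Acat3, and reads may be shared between them. Hmgcs1, which condenses acetoacetyl-CoA to HMG-CoA, was at 48.8, 46.8, 50.8 and 42.9 CPM in Irgm_IFNAR-KO, 31.7, 31.2, 30.01 and 30.8 CPM in Irgm1-KO and 41.5, 35.96, 35 and 37.7 CPM in WT. The 3 groups did not overlap. Its fall against WT was small, -0.28 (SE 0.076, adjusted p = 0.0108), and its rise with the receptor also lacking was 0.61 (SE 0.076, adjusted p = 3.65e-05).

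Mevalonate is phosphorylated by Mvk and then by Pmvk, and Mvd decarboxylates the product. Mvk was at 7.85, 8.25, 6.80 and 8.92 CPM in Irgm_IFNAR-KO, 6.58, 6.45, 9.73 and 8.28 CPM in Irgm1-KO and 7.67, 13.6, 8.83 and 9.04 CPM in WT. These groups overlapped, and Mvk was called in none of the 3 contrasts of the first experiment; against WT the difference in Irgm1-KO was -0.33 with a 95% interval of -0.74 to 0.071. Pmvk was at 42.4, 45.7, 44.5 and 56.9 CPM in Irgm_IFNAR-KO, 10.6, 11.7, 14.7 and 12.01 CPM in Irgm1-KO and 23.9, 45.3, 30.7 and 30.8 CPM in WT. The Irgm1-KO libraries lay below all others, at a log2 difference of -1.42 (SE 0.18, adjusted p = 6e-05) against WT, and the rise in Irgm_IFNAR-KO over Irgm1-KO was 1.95 (SE 0.18, adjusted p = 4.05e-06). Mvd was at 14.3, 18.1, 15.4 and 18.8 CPM in Irgm_IFNAR-KO, 7.47, 7.29, 8.12 and 7.73 CPM in Irgm1-KO and 11.2, 13.5, 10.1 and 11.9 CPM in WT. These 3 groups did not overlap, and the changes were -0.61 (SE 0.11, adjusted p = 0.000834) in Irgm1-KO against WT and 1.12 (SE 0.11, adjusted p = 5.86e-06) in Irgm_IFNAR-KO against Irgm1-KO.

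Idi1 converts isopentenyl diphosphate to its isomer. It was a low transcript, at 2.46, 2.64, 2.71 and 2.60 CPM in Irgm_IFNAR-KO, 0.552, 0.657, 0.846 and 0.615 CPM in Irgm1-KO and 1.83, 2.74, 1.59 and 2.05 CPM in WT. The Irgm1-KO libraries were lowest without overlap, at a log2 difference of -1.61 (SE 0.18, adjusted p = 2.2e-05) against WT, and Irgm_IFNAR-KO was higher than Irgm1-KO by 1.95 (SE 0.18, adjusted p = 3.31e-06). Fdps makes farnesyl diphosphate, the branch point to sterols and protein prenylation. In the first experiment it was at 0.326, 0.464, 0.484 and 0.712 CPM in Irgm_IFNAR-KO, 0.297, 0.286, 0.203 and 0.216 CPM in Irgm1-KO and 0.529, 0.587, 0.448 and 0.567 CPM in WT. Irgm1-KO was lowest, at a log2 difference of -1.09 (SE 0.25, adjusted p = 0.00416) against WT, but the rise in Irgm_IFNAR-KO of 0.99 (SE 0.25, adjusted p = 0.00711) was not called without the 3 libraries of lowest Xist (0.64, adjusted p = 0.0625). Fdft1, the squalene synthase, was at 10.5, 12.02, 11.2 and 14.1 CPM in Irgm_IFNAR-KO, 4.61, 5.66, 6.55 and 5.75 CPM in Irgm1-KO and 9.18, 11.1, 8.37 and 9.98 CPM in WT. The Irgm1-KO libraries again lay below all others, at a log2 difference of -0.77 (SE 0.13, adjusted p = 0.000504) against WT and with a rise of 1.09 (SE 0.13, adjusted p = 3.13e-05) in Irgm_IFNAR-KO. Fdft1 shares 18.3% of its exon bases with Ctsb on the opposite strand, and the use of strand in counting is not given in the sources used here.

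Ggps1 went the other way. It makes geranylgeranyl diphosphate, which is used for protein prenylation and lies off the line to sterols. It was at 30.6, 29.6, 29 and 30.5 CPM in Irgm_IFNAR-KO, 35.3, 34.9, 41.99 and 32.9 CPM in Irgm1-KO and 29.9, 32.2, 31.6 and 30.9 CPM in WT. The Irgm1-KO libraries were the highest without overlap. The rise against WT was 0.22 (SE 0.078, adjusted p = 0.0421), and it was not called when any one of 6 libraries was left out, with Irgm1-KO and WT fitted alone, or with a replicate block (adjusted p = 0.0767). The fall in Irgm_IFNAR-KO against Irgm1-KO was -0.28 (SE 0.078, adjusted p = 0.0126).

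Of the same 9 enzymes, 7 were lower in the second experiment in Irgm1KO controls than in WT controls and none was higher. All 7, and no other, had an unadjusted p under 0.05. The shares of all tested genes were 26.1% lower and 27.3% higher. Pmvk was at 11.5, 11.4, 12.2 and 12.3 CPM in Irgm1KO controls and 22.9, 27.5, 21.6 and 21.5 CPM in WT controls, and Fdps at 12.2, 13.2, 13.3 and 12.4 CPM in Irgm1KO controls and 20.7, 19.5, 15.98 and 21.7 CPM in WT controls. For both genes the groups did not overlap, and 26.3% of all tested genes lay lower in this way. Their log2 fold changes were -0.98 (SE 0.095) and -0.61 (SE 0.081). Idi1 fell, with a log2 change of -0.96 (SE 0.29, adjusted p = 0.0114), with overlap between 0.509 to 1.25 CPM in Irgm1KO controls and 1.06 to 1.96 CPM in WT controls. Mvd, Acat2, Hmgcs1 and Fdft1 changed by -0.72, -0.58, -0.50 and -0.42. Mvk (0.079, adjusted p = 0.349) and Ggps1 (0.016, adjusted p = 0.863) were not called.

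Of the 11 sterol ring enzymes, 7 were lower in Irgm1-KO than in WT in the first experiment, none was higher and 4 were not called. Among all tested genes 20.7% were lower and 19.8% higher. The deepest falls were those of Cyp51, Tm7sf2 and Sqle. Sqle, the squalene epoxidase, was at 13.2, 12.9, 14.9 and 11.7 CPM in Irgm_IFNAR-KO, 2.95, 2.54, 2.57 and 2.76 CPM in Irgm1-KO and 9.36, 7.84, 6.42 and 8.82 CPM in WT. No library of Irgm_IFNAR-KO was as low as any of WT, and none of WT as low as any of Irgm1-KO. The changes were -1.58 (SE 0.12, adjusted p = 1.17e-06) in Irgm1-KO against WT and 2.28 (SE 0.13, adjusted p = 4.06e-08) in Irgm_IFNAR-KO against Irgm1-KO. Lss, which closes squalene epoxide into lanosterol, stood at 11.7, 12.1, 13.2 and 11.5 CPM in Irgm_IFNAR-KO, 11.7, 12.7, 9.49 and 12.04 CPM in Irgm1-KO and 12.2, 9.49, 11.2 and 12.3 CPM in WT. These groups overlapped; the difference in Irgm1-KO against WT was 0.026 with a 95% interval of -0.21 to 0.26. Cyp51, the lanosterol demethylase, was at 28.99, 33.1, 31.5 and 36.8 CPM in Irgm_IFNAR-KO, 6.92, 6.21, 9.27 and 8.10 CPM in Irgm1-KO and 21.5, 31.2, 21.8 and 26.5 CPM in WT. Irgm1-KO lay far below both other groups, at a log2 difference of -1.73 (SE 0.15, adjusted p = 3.05e-06) against WT and with 2.09 (SE 0.15, adjusted p = 4.81e-07) in Irgm_IFNAR-KO against Irgm1-KO.

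Tm7sf2 and Lbr both encode sterol reductases that act on the product of Cyp51, and Lbr is also a protein of the inner nuclear membrane. Tm7sf2 was at 6.92, 9.32, 7.42 and 10.5 CPM in Irgm_IFNAR-KO, 2.04, 2.42, 3.93 and 2.73 CPM in Irgm1-KO and 6.27, 11.5, 8.31 and 8.43 CPM in WT. Irgm1-KO was lowest without overlap, at a log2 difference of -1.63 (SE 0.23, adjusted p = 0.000131), and the rise in Irgm_IFNAR-KO was 1.61 (SE 0.23, adjusted p = 0.000126). Tm7sf2 shares 12.1% of its exon bases with Vps51 on the same strand. Lbr was at 36.6, 36.9, 37.6 and 33.6 CPM in Irgm_IFNAR-KO, 22.3, 20.7, 22.2 and 20.99 CPM in Irgm1-KO and 45.7, 45.6, 46.8 and 42.8 CPM in WT. Its replicates lay close together and its groups did not overlap, with -1.07 (SE 0.065, adjusted p = 1.19e-07) in Irgm1-KO against WT and 0.75 (SE 0.065, adjusted p = 1.72e-06) in Irgm_IFNAR-KO against Irgm1-KO. Lbr was the one gene of the 30 that was called lower in Irgm_IFNAR-KO than in WT.

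Msmo1, a sterol methyl oxidase, changed by -0.42 (SE 0.10, adjusted p = 0.00661) in Irgm1-KO, with 34.8 to 39.4 CPM in Irgm1-KO and 42.3 to 58.7 CPM in WT. Ebp, a sterol isomerase, changed by -0.75 (SE 0.17, adjusted p = 0.00373), and Sc5d, a desaturase, by -0.66 (SE 0.073, adjusted p = 1.83e-05). Sc5d was at 21.9 to 23.2 CPM in Irgm_IFNAR-KO, 11.4 to 12.3 CPM in Irgm1-KO and 16.8 to 20.2 CPM in WT, with no overlap among the 3. The 3 that did not pass in Irgm1-KO beside Lss were Nsdhl, Hsd17b7 and Dhcr7, with -0.10, -0.26 and -0.20. Nsdhl and Hsd17b7 act together in removing methyl groups, and Dhcr7 reduces 7-dehydrocholesterol to cholesterol. In Irgm_IFNAR-KO against Irgm1-KO, 9 of the 11 ring enzymes were higher, where 21.5% of all tested genes were. Among them were Hsd17b7 (0.48, adjusted p = 0.00292) and Dhcr7 (0.29, adjusted p = 0.00907). Lss (0.076, adjusted p = 0.606) and Nsdhl (0.19, adjusted p = 0.135) were not called.

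A total of 8 ring enzymes were lower in the second experiment, in Irgm1KO controls against WT controls, where 26.1% of all tested genes were. Sqle was at 7.495, 7.75, 8.27 and 6.00 CPM in Irgm1KO controls and 14.98, 14.9, 10.2 and 16.2 CPM in WT controls, Cyp51 at 10.6, 11.5, 13.1 and 10.7 CPM in Irgm1KO controls and 22.5, 25.4, 16.9 and 23.6 CPM in WT controls. Neither pair of groups overlapped, and the changes were -0.93 (SE 0.13, adjusted p = 1.57e-05) and -0.94 (SE 0.11, adjusted p = 3.26e-06). Tm7sf2 changed by -0.98 (SE 0.14), Lbr by -0.61 (SE 0.15), Sc5d by -0.48 (SE 0.069), Ebp by -0.42 (SE 0.049), Dhcr7 by -0.29 (SE 0.063) and Lss by -0.16 (SE 0.050). Msmo1 (0.012, adjusted p = 0.891), Nsdhl (-0.0027, adjusted p = 0.974) and Hsd17b7 (-0.30, adjusted p = 0.0609) were not called.

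**Figure D2:**
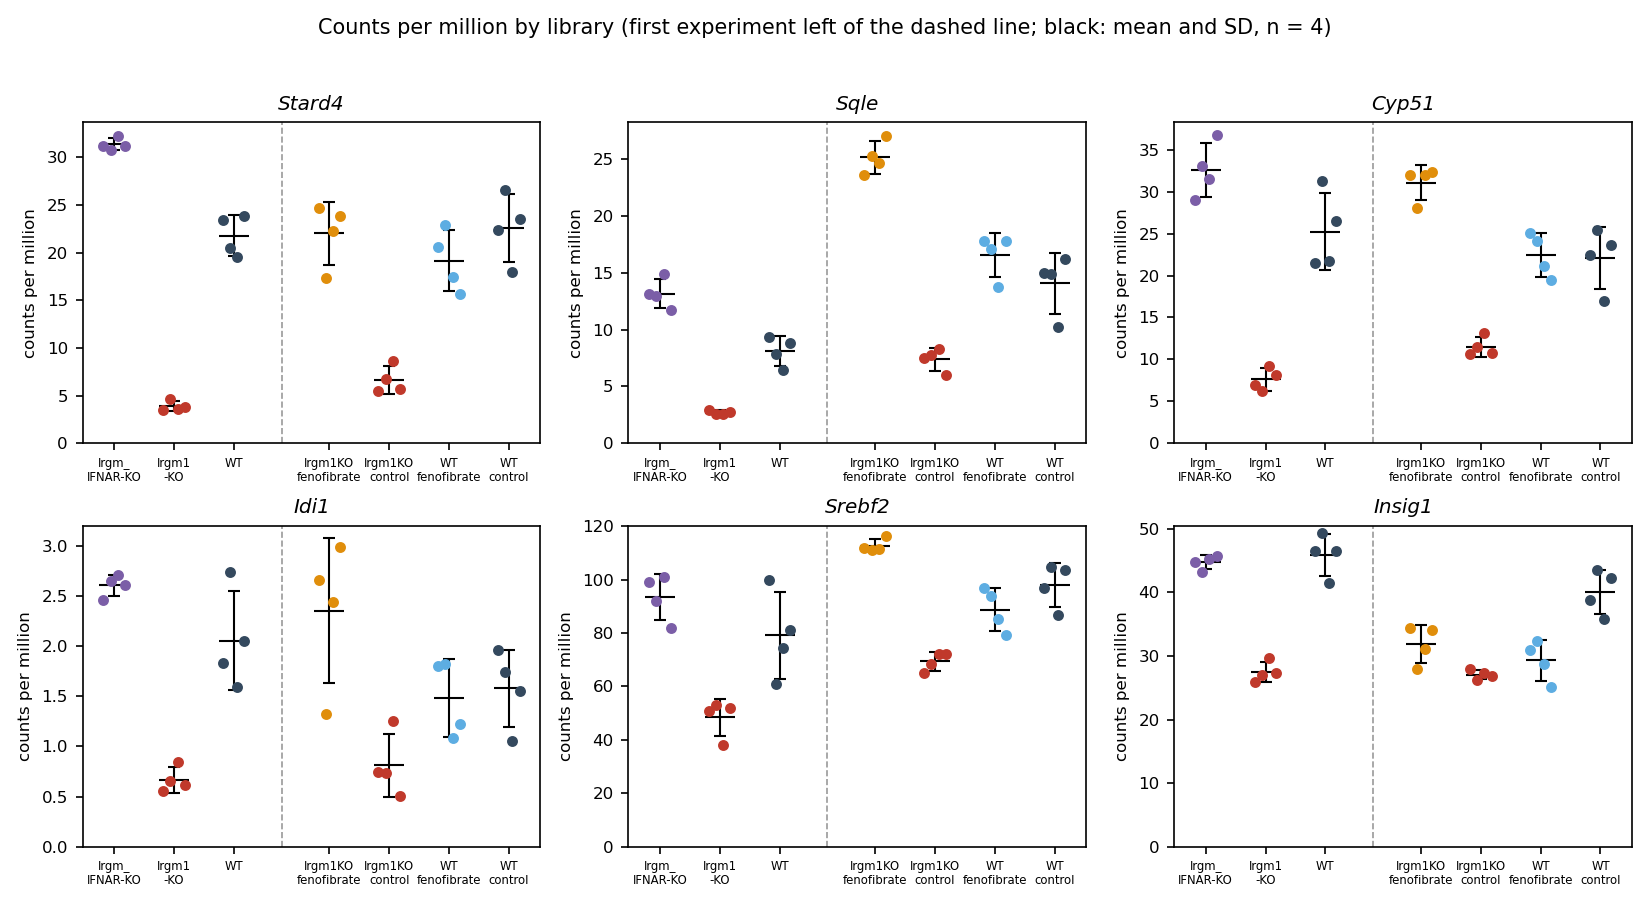
Levels in CPM of Stard4, Sqle, Cyp51, Idi1, Srebf2 and Insig1 in every library, with the 3 groups of the first experiment left of the dashed line and the 4 of the second right of it. Black marks are the mean and SD (n = 4). For all 6 genes the Irgm1-KO libraries lie below those of Irgm_IFNAR-KO and WT, and the Irgm1KO fenofibrate libraries lie above the Irgm1KO controls.

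Of the 6 SREBP2 control genes, 4 fell in Irgm1-KO and 2 were not called, where 20.7% of all tested genes were called lower. Srebf2, which encodes SREBP2, was at 99, 91.96, 101 and 81.7 CPM in Irgm_IFNAR-KO, 50.7, 53.2, 38.2 and 51.8 CPM in Irgm1-KO and 99.9, 60.8, 74.4 and 81.3 CPM in WT. The lowest WT library was replicate 2 and the lowest Irgm1-KO library replicate 3, and Irgm1-KO overlapped neither other group, while Irgm_IFNAR-KO overlapped WT. The changes were -0.71 (SE 0.15, adjusted p = 0.00249) in Irgm1-KO against WT and 0.95 (SE 0.15, adjusted p = 0.00029) in Irgm_IFNAR-KO against Irgm1-KO. Scap was at 43.8, 43.6, 43.3 and 38.4 CPM in Irgm_IFNAR-KO, 35.1, 37.4, 28.5 and 34.2 CPM in Irgm1-KO and 53.3, 39.7, 45.9 and 47.3 CPM in WT. It fell by 0.46 on the log2 scale in Irgm1-KO (SE 0.10, adjusted p = 0.00383). Its rise of 0.32 in Irgm_IFNAR-KO (adjusted p = 0.0257) was lost without any one of Irgm1-KO replicates 3 or 4 or Irgm_IFNAR-KO replicates 1, 2 or 3 (adjusted p up to 0.0825).

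The inhibitors Insig1 and Insig2 differed in their values. Insig1, itself a target of SREBP2, was at 44.8, 43.2, 45.3 and 45.8 CPM in Irgm_IFNAR-KO, 25.9, 27.1, 29.7 and 27.4 CPM in Irgm1-KO and 46.5, 49.3, 41.4 and 46.6 CPM in WT. Irgm1-KO lay below both other groups, which overlapped each other, with -0.74 (SE 0.072, adjusted p = 5.9e-06) against WT and 0.70 (SE 0.072, adjusted p = 7.24e-06) in Irgm_IFNAR-KO against Irgm1-KO. Insig2 was at 24.04, 27.2, 26.1 and 29.1 CPM in Irgm_IFNAR-KO, 22.7, 21.8, 27.1 and 24.2 CPM in Irgm1-KO and 21.4, 35.2, 25.4 and 24.6 CPM in WT, all overlapping, with -0.15 in Irgm1-KO and a 95% interval of -0.45 to 0.15. Of the proteases, Mbtps1 was at 66.4 to 74.6 CPM in Irgm_IFNAR-KO, 44.4 to 53.2 CPM in Irgm1-KO and 57.9 to 72.2 CPM in WT. Its changes were -0.43 (SE 0.085, adjusted p = 0.00146) in Irgm1-KO against WT and 0.52 (SE 0.085, adjusted p = 0.000316) in Irgm_IFNAR-KO against Irgm1-KO. Mbtps2, which shares 28.4% of its exon bases with Yy2 on the same strand, was not called (-0.23, adjusted p = 0.177 in Irgm1-KO against WT).

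All 6 control genes were lower in Irgm1KO controls in the second experiment, where 26.1% of all tested genes were. Srebf2 was at 64.9, 68.5, 72.1 and 72.3 CPM in Irgm1KO controls and 96.8, 105, 86.7 and 103 CPM in WT controls, with -0.50 (SE 0.067, adjusted p = 1.01e-05). Insig1 was at 28.01, 26.2, 27.3 and 26.9 CPM in Irgm1KO controls and 38.7, 43.6, 35.8 and 42.2 CPM in WT controls, with -0.57 (SE 0.082, adjusted p = 2.1e-05). In neither gene did the groups overlap. The smallest of the 6 was Insig2 with -0.15 (SE 0.045, adjusted p = 0.01), which was not called without Irgm1KO control replicate 2 (adjusted p = 0.0508). Mbtps1, Mbtps2 and Scap changed by -0.38, -0.35 and -0.27.

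Among the transport genes, Stard4 had the deepest fall of the 30 in both experiments. Stard4 is a cytosolic carrier that moves cholesterol between membranes and is a target of SREBP2. It was at 31.2, 30.8, 32.3 and 31.2 CPM in Irgm_IFNAR-KO, 3.52, 4.65, 3.605 and 3.81 CPM in Irgm1-KO and 23.4, 20.5, 19.5 and 23.8 CPM in WT. The replicates were tight and the 3 groups did not overlap. Irgm1-KO was at a fold of 0.179 of WT (log2 -2.48, SE 0.10, adjusted p = 1.01e-08), and Irgm_IFNAR-KO stood 8.05-fold above Irgm1-KO (log2 3.01, SE 0.10, adjusted p = 8.07e-10). In the second experiment Stard4 was at 5.52, 6.73, 8.68 and 5.70 CPM in Irgm1KO controls and 22.3, 26.6, 17.98 and 23.6 CPM in WT controls, again without overlap, with -1.77 (SE 0.17, adjusted p = 3.79e-07).

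Soat1, Npc1 and Npc2, which store or release cholesterol, had smaller differences. Soat1 esterifies cholesterol for storage, and Npc1 and Npc2 carry it out of the lysosome. In the first experiment Soat1 (-0.095) and Npc1 (-0.0091) were not called in any of the 3 contrasts, with 95% intervals of -0.30 to 0.11 and -0.38 to 0.36 for Irgm1-KO against WT. Npc2 was at 1706, 1775, 1599 and 2018 CPM in Irgm_IFNAR-KO, 2116, 2268, 2964 and 2437 CPM in Irgm1-KO and 1871, 3021, 2357 and 2271 CPM in WT. It was lower in Irgm_IFNAR-KO than in Irgm1-KO (-0.46, SE 0.15, adjusted p = 0.0222), a call lost without any one of Irgm1-KO replicate 3 or Irgm_IFNAR-KO replicates 2 or 3 (adjusted p up to 0.0586). In the second experiment Soat1 was at 421 to 467 CPM in Irgm1KO controls and 537 to 577 CPM in WT controls, and Npc1 at 328 to 349 CPM in Irgm1KO controls and 398 to 440.1 CPM in WT controls. Both were lower without overlap, at -0.31 (SE 0.069, adjusted p = 0.00108) and -0.28 (SE 0.080, adjusted p = 0.00717), while Npc2 was not called (0.050, adjusted p = 0.544).

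Compared with WT, macrophages without both Irgm1 and the receptor had 5 of the 30 transcripts higher and 1 lower, against 3.94% and 8.22% of all tested genes (12.2% in either direction). The 5 were Sqle (0.70, SE 0.12, adjusted p = 0.00181), Stard4 (0.53, SE 0.095, adjusted p = 0.00287), Mvd (0.51, SE 0.11, adjusted p = 0.00819), Hmgcs1 (0.33, SE 0.076, adjusted p = 0.0114) and Sc5d (0.28, SE 0.073, adjusted p = 0.0225). Lbr was lower (-0.32, SE 0.064, adjusted p = 0.00521). The median over the 30 was 0.09, against 0.0078 over all tested genes. The count rose to 10 (8 higher, 2 lower) without the 3 libraries of lowest Xist, and to 14 (10 higher, 4 lower) with log2 Xist as a covariate. The share of all tested genes called rose as well, from 12.2% to 16.7% and 31.7%. Hmgcs1 and Sc5d were each called or not depending on single libraries: Hmgcs1 had an adjusted p of 0.0607 and 0.0681 without Irgm_IFNAR-KO replicates 1 and 3, and Sc5d had 0.0569 to 0.082 without any one of Irgm_IFNAR-KO replicates 1, 3 or 4 or WT replicates 1 or 3.

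The 2 experiments used separate libraries for the comparison of cells without Irgm1 with WT. Their log2 fold changes across the 30 genes had a Pearson r of 0.92, against 0.83 across all 13676 genes tested in both, given as a description since genes are not independent. The sign was shared by 27 of the 30, and by 10790 of the 13676 genes tested in both. Of the 30, 18 were called lower in both, against 2148 of the 13676. That is 18 of the 19 called lower in the first and 18 of the 24 in the second. The 6 genes with the deepest falls were the same in both: Stard4, Cyp51, Tm7sf2, Idi1, Sqle and Pmvk. Msmo1 passed in the first (-0.42) and stood at 0.012 in the second. Lss, Dhcr7, Insig2, Mbtps2, Soat1 and Npc1 passed in the second and not in the first. Differences between the experiments were not tested.

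**Figure D3:**
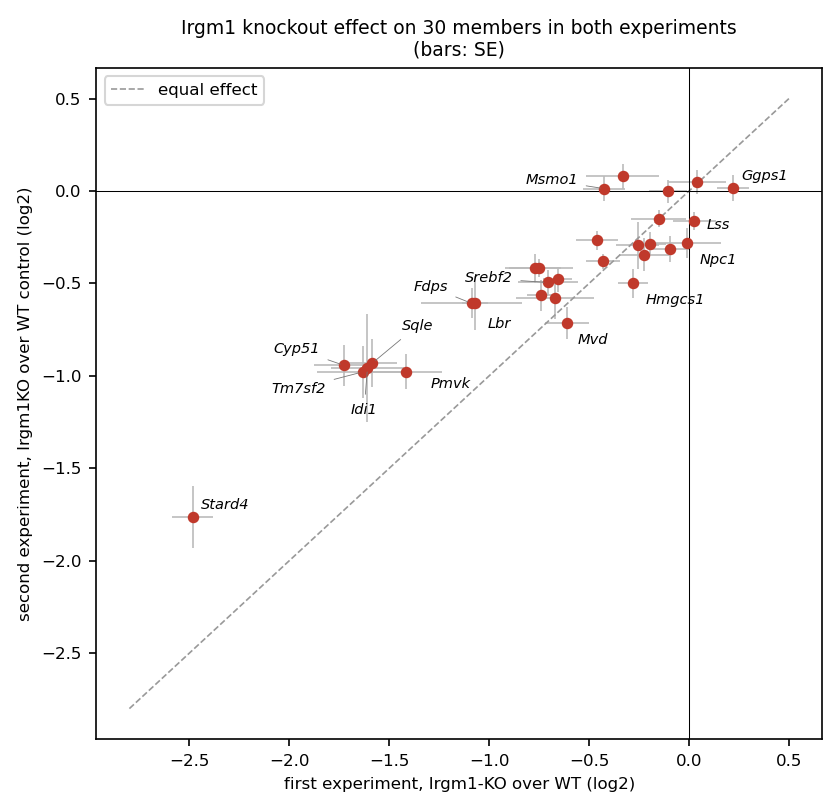
Log2 fold change of cells without Irgm1 over WT in the first experiment (x axis) and in the second (y axis) for the 30 genes, with standard errors as bars and a dashed line of equal effect. Stard4 lies at -2.48 and -1.77, and the group of Cyp51, Tm7sf2, Idi1, Sqle and Pmvk lies between -1.73 and -1.42 on the x axis and between -0.98 and -0.93 on the y axis.

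As a summary of the 20 enzymes, Ggps1 included, the mean of their log2 levels was taken in each library relative to WT. It was 0.16 ± 0.089 in Irgm_IFNAR-KO, -0.74 ± 0.088 in Irgm1-KO and 0 ± 0.14 in WT (SD, n = 4). In the second experiment it was 0.19 ± 0.066 in Irgm1KO with fenofibrate, -0.49 ± 0.057 in Irgm1KO controls, -0.077 ± 0.11 in WT with fenofibrate and 0 ± 0.094 in WT controls. The Irgm1-KO libraries, from -0.83 to -0.62, lay below all others of the first experiment, and the Irgm1KO control libraries, from -0.55 to -0.41, below all others of the second.

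**Figure D4:**
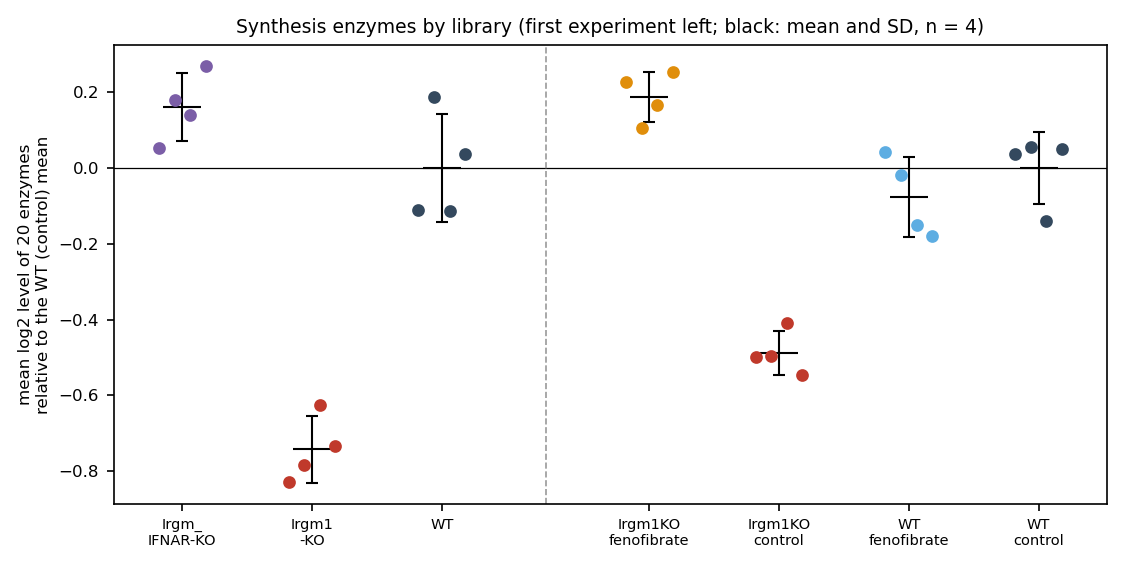
Mean log2 level of the 20 synthesis enzymes in each library, relative to the mean of WT (first experiment, left of the dashed line) or of WT controls (second experiment). Black marks are the mean and SD of 4 libraries. Irgm1-KO averages -0.74 and Irgm1KO controls -0.49. Irgm_IFNAR-KO averages 0.16, Irgm1KO with fenofibrate 0.19 and WT with fenofibrate -0.077. The Irgm1KO fenofibrate libraries all lie above the WT controls.

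The change with fenofibrate differed between the 2 genotypes for most of the 30. In Irgm1KO cells 26 of the 30 were called higher and 1 lower with fenofibrate, against 23.5% and 22.2% of all tested genes (45.7% in either direction), with a median of 0.40 against 0.013. In WT cells 3 were called higher and 8 lower, against 18.1% and 16.9% of all tested genes (35% in either direction), with a median of -0.02 against 0.017. Replicate numbers paired these libraries. With a replicate block 28 were called in Irgm1KO (Mbtps2 added, adjusted p = 0.0449), where 53% of all tested genes were. In WT 14 were called (Sqle, Dhcr7 and Ggps1 added, adjusted p = 0.025, 0.036 and 0.0188), where 43.7% of all tested genes were. The fenofibrate effect was tested between genotypes as an interaction, Irgm1KO minus WT. It was higher in Irgm1KO for 21 genes and lower for none, against 14.9% and 14.7% of all tested genes (29.6% in either direction), with a median of 0.50. None was lower at an unadjusted p under 0.05 either, nor by the DESeq2 Wald test, but Ggps1 was called lower with a replicate block (-0.20, adjusted p = 0.0304). The contrasts share the control libraries of each genotype with the comparison of Irgm1KO and WT controls. With fenofibrate all Irgm1KO libraries lay above all Irgm1KO controls for 23 genes and below for 1 (20.7% and 20.8% of all tested genes). In WT the fenofibrate libraries lay above all controls for 4 and below for 8 (19% and 18% of all).

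**Figure D5:**
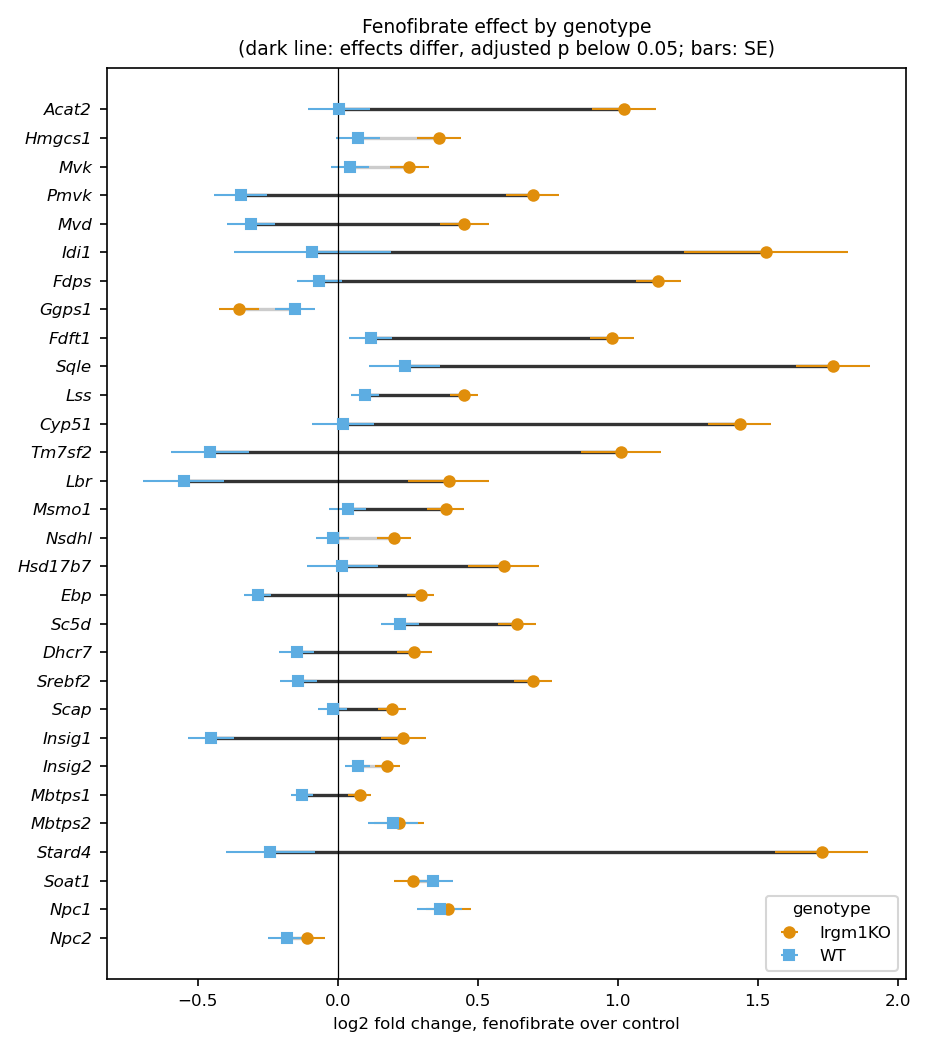
Log2 fold change of fenofibrate over control for each of the 30 genes in Irgm1KO and WT cells, with standard errors as bars. A dark line joins the 2 effects where they differed in the interaction test. Stard4 (1.73 in Irgm1KO, -0.24 in WT) and Idi1 (1.53 in Irgm1KO, -0.09 in WT) have the widest gaps.

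All precursor enzymes but Ggps1 rose with fenofibrate in Irgm1KO cells, where 23.5% of all tested genes were called higher. Idi1 was at 2.66, 1.32, 2.43 and 2.99 CPM with fenofibrate and 0.747, 0.740, 1.25 and 0.509 CPM in controls, a rise of 1.53 (SE 0.29, adjusted p = 0.000451). Replicate 2 was the lowest of the fenofibrate libraries but still lay above every control. In WT the same gene was at 1.80, 1.82, 1.09 and 1.22 CPM with fenofibrate and 1.96, 1.74, 1.06 and 1.55 CPM in controls, overlapping, with -0.090 (adjusted p = 0.841). The effects differed by 1.62 (SE 0.40, adjusted p = 0.00681). Fdps was at 27.3, 31.2, 26.8 and 27.7 CPM with fenofibrate and 12.2, 13.2, 13.3 and 12.4 CPM in controls in Irgm1KO cells, with no overlap. It was at 19.7, 19.3, 17.9 and 17.6 CPM with fenofibrate and 20.7, 19.5, 15.98 and 21.7 CPM in controls in WT cells. Fdps rose by 1.15 (SE 0.081) in Irgm1KO and stood at -0.065 (SE 0.080) in WT, and the effects differed by 1.21 (SE 0.11, adjusted p = 2.1e-06). Acat2 rose by 1.02 (SE 0.11) in Irgm1KO against 0.0049 in WT, and Fdft1 by 0.98 (SE 0.079) against 0.12. Pmvk and Mvd moved in opposite directions: Pmvk by 0.70 in Irgm1KO and -0.35 in WT, and Mvd by 0.45 and -0.31, all called. Hmgcs1 rose by 0.36 (SE 0.078, adjusted p = 0.00115) in Irgm1KO, but its effects did not pass the test of the difference (0.29, adjusted p = 0.0579; called with a replicate block, adjusted p = 0.0217). Ggps1 fell in Irgm1KO, with 21.02 to 27.4 CPM with fenofibrate against 29.1 to 33.9 CPM in controls and a change of -0.35 (SE 0.071, adjusted p = 0.000637).

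All 11 ring enzymes rose with fenofibrate in Irgm1KO cells, where 23.5% of all tested genes were called higher. Sqle was at 23.6, 25.3, 24.6 and 27.05 CPM with fenofibrate and 7.495, 7.75, 8.27 and 6.00 CPM in controls in Irgm1KO cells. It was at 17.8, 17.1, 13.8 and 17.8 CPM with fenofibrate and 14.98, 14.9, 10.2 and 16.2 CPM in controls in WT cells. The Irgm1KO groups did not overlap and the WT groups did; the rise was 1.77 (SE 0.13, adjusted p = 4.22e-08) in Irgm1KO, the WT value of 0.24 (adjusted p = 0.162) passed with a replicate block, and the effects differed by 1.53 (SE 0.18, adjusted p = 1.95e-05). Cyp51 was at 31.97, 28, 32 and 32.4 CPM with fenofibrate and 10.6, 11.5, 13.1 and 10.7 CPM in controls in Irgm1KO cells, a rise of 1.44 (SE 0.11, adjusted p = 7.6e-08). In WT its change was 0.020 (adjusted p = 0.914), with 19.4 to 25.1 CPM with fenofibrate and 16.9 to 25.4 CPM in controls. Tm7sf2, Lbr and Ebp rose in Irgm1KO and fell in WT: the changes were 1.01 in Irgm1KO and -0.45 in WT for Tm7sf2, 0.40 and -0.55 for Lbr, and 0.30 and -0.29 for Ebp. The Lbr libraries of Irgm1KO with fenofibrate spread widely, at 45.2, 25.3, 31.02 and 40.7 CPM, and the rise (adjusted p = 0.0355) was lost without any one of Irgm1KO control replicates 2, 3 or 4 or Irgm1KO fenofibrate replicates 1 or 4 (adjusted p up to 0.179). Tm7sf2 was not called in WT without fenofibrate replicate 4 (adjusted p = 0.066). Sc5d rose in both genotypes, by 0.64 in Irgm1KO and 0.22 in WT, and the rise was larger in Irgm1KO (0.42, SE 0.097, adjusted p = 0.00404). The WT rise was not called without control replicate 3 (adjusted p = 0.092) or fenofibrate replicate 2 (adjusted p = 0.0647). The others rose in Irgm1KO by 0.20 to 0.59 (Nsdhl and Hsd17b7 at the ends) and were not called in WT, apart from Dhcr7 with a replicate block. Nsdhl was the one ring enzyme whose effects were not shown to differ (0.22, adjusted p = 0.0619; adjusted p = 0.0324 with a replicate block), and the difference for Hsd17b7 was lost without any one of 5 libraries (adjusted p up to 0.0583).

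Of the control genes, Srebf2 was at 112, 111, 111 and 116 CPM with fenofibrate and 64.9, 68.5, 72.1 and 72.3 CPM in controls in Irgm1KO cells, with a wide gap between the groups. It was at 96.8, 93.7, 85.2 and 79.4 CPM with fenofibrate and 96.8, 105, 86.7 and 103 CPM in controls in WT cells, which overlapped. It rose by 0.70 (SE 0.067, adjusted p = 4.42e-07) in Irgm1KO, was not called in WT (-0.14, adjusted p = 0.115), and the effects differed by 0.84 (SE 0.094, adjusted p = 1.12e-05). Insig1 was at 34.4, 28.02, 31.1 and 34.1 CPM with fenofibrate and 28.01, 26.2, 27.3 and 26.9 CPM in controls in Irgm1KO cells, and the small rise of 0.23 (SE 0.082, adjusted p = 0.027) was lost without any one of Irgm1KO control replicates 2 or 4 or Irgm1KO fenofibrate replicates 1 or 4 (adjusted p up to 0.121). In WT it was at 30.98, 32.4, 28.8 and 25.1 CPM with fenofibrate and 38.7, 43.6, 35.8 and 42.2 CPM in controls and fell without overlap, at a log2 change of -0.45 (SE 0.082, adjusted p = 0.000471). The effects differed by 0.69 (SE 0.12). Scap (0.19) and Insig2 (0.18) rose slightly in Irgm1KO, and Mbtps1 (0.079, adjusted p = 0.128) and Mbtps2 (0.22, adjusted p = 0.0576) were not called there. In WT Mbtps1 fell slightly (-0.13, adjusted p = 0.023), a call lost without any one of WT control replicates 1 or 4 or WT fenofibrate replicate 3 (adjusted p up to 0.0824). The genotype differences of Scap and Mbtps1, 0.21 and 0.21, were each lost when single libraries were left out.

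Stard4 had the widest difference between genotypes. It was at 24.7, 17.4, 22.3 and 23.8 CPM with fenofibrate and 5.52, 6.73, 8.68 and 5.70 CPM in controls in Irgm1KO cells, with no overlap and a rise of 1.73 (SE 0.17, adjusted p = 7.52e-07). It was at 20.6, 22.9, 17.4 and 15.7 CPM with fenofibrate and 22.3, 26.6, 17.98 and 23.6 CPM in controls in WT cells, with overlap and -0.24 (adjusted p = 0.271). The effects differed by 1.97 (SE 0.23, adjusted p = 2.1e-05). Soat1 and Npc1 rose in both genotypes. Soat1 was at 687, 714, 669.5 and 739 CPM with fenofibrate and 563, 537, 541 and 577 CPM in controls in WT cells, and changed by 0.27 (SE 0.069) in Irgm1KO and 0.34 (SE 0.069) in WT. Npc1 changed by 0.40 (SE 0.080) in Irgm1KO and 0.36 (SE 0.080) in WT. Their effects were not shown to differ, with 95% intervals of the difference of -0.28 to 0.14 and -0.21 to 0.27. Npc2 fell in WT by 0.18 (adjusted p = 0.038), a call that any one of 6 libraries removed when left out.

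Irgm1KO cells with fenofibrate were also set against WT controls, a comparison added after the data had been seen. Of the 30, 10 were higher and 5 lower, against 25.9% and 22.5% of all tested genes (48.4% in either direction). Those higher were Acat2, Mvk, Fdps, Fdft1, Sqle, Lss, Cyp51, Msmo1, Nsdhl and Srebf2, led by Sqle (0.84, SE 0.13, adjusted p = 6.08e-05), Fdft1 (0.56, SE 0.078, adjusted p = 2.43e-05) and Fdps (0.54, SE 0.080, adjusted p = 4.5e-05). Those lower were Pmvk (-0.28), Mvd (-0.26), Ggps1 (-0.34), Insig1 (-0.33, SE 0.082, adjusted p = 0.00311) and Mbtps1 (-0.30). Stard4 stood at -0.037 with a 95% interval of -0.38 to 0.30. Srebf2, Nsdhl, Pmvk and Mvd passed or failed with single libraries left out.

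Genes near the pathway were followed by lists. Of 10 other genes that SREBP proteins induce, 6 were lower and 1 higher in Irgm1-KO than in WT (20.7% and 19.8% of all tested genes). In Irgm_IFNAR-KO against Irgm1-KO, 6 were higher and 1 lower (21.5% and 21.3% of all), and in Irgm1KO controls against WT controls 7 were lower and 1 higher (26.1% and 27.3% of all). With fenofibrate 7 rose in Irgm1KO cells and none fell there (23.5% and 22.2% of all; 8 of the 10 had an unadjusted p under 0.05), while in WT 3 were higher and 2 lower (18.1% and 16.9% of all). Fads2, a fatty acid desaturase, was at 13.7, 13.5, 14.5 and 13.8 CPM in Irgm_IFNAR-KO, 2.12, 3.38, 3.22 and 3.16 CPM in Irgm1-KO and 11.5, 11.9, 10.6 and 13.3 CPM in WT. It changed by -1.99 (SE 0.13, adjusted p = 2.64e-07) in Irgm1-KO against WT and by 2.03 (SE 0.27, adjusted p = 2.2e-05) with fenofibrate in Irgm1KO cells. Lpin1, a phosphatidate phosphatase, changed by -1.54 (SE 0.19) in Irgm1-KO. The gene that rose was Acss2, which activates acetate, with 0.89 (SE 0.087, adjusted p = 6.24e-06).

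Of 14 genes of the isoprenoid branch and protein prenylation, 5 were higher and 1 lower in Irgm1-KO than in WT, where 40.4% of all tested genes were called, and 6 were higher and 5 lower in Irgm1KO controls than in WT controls, where 53.4% were called. Pdss1, which makes the side chain of ubiquinone, changed by 0.90 (SE 0.16, adjusted p = 0.000712), the prenyltransferase subunit Rabggtb by 0.44 (SE 0.063, adjusted p = 0.000126), and the protease Zmpste24 by -0.34 (SE 0.063, adjusted p = 0.00102). Of 12 tested genes of uptake and intracellular transport among 13 listed, 4 were lower and 2 higher in Irgm1-KO than in WT (40.4% of all genes called), and 6 lower and 4 higher in Irgm1KO controls than in WT controls (53.4% called). Scarb1, a lipoprotein receptor, was at 107, 113, 113 and 113 CPM in Irgm_IFNAR-KO, 34.3, 39.5, 42.5 and 40.6 CPM in Irgm1-KO and 105, 106, 108 and 108 CPM in WT, with Irgm1-KO lowest at a log2 difference of -1.44 (SE 0.074, adjusted p = 3.58e-08). Stard3, a late endosomal sterol carrier, rose by 1.09 (SE 0.067, adjusted p = 1.25e-07), the reverse of Stard4, and Scarb2 of the lysosomal membrane changed by -0.77 (SE 0.061).

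Of the 5 LXR genes, 2 were higher in Irgm1-KO than in WT, where 19.8% of all tested genes were. Nr1h3, which encodes LXR alpha, and Mylip, a ligase that degrades lipoprotein receptors, were higher by 1.79 (SE 0.24, adjusted p = 7.25e-05) and 0.85 (SE 0.094, adjusted p = 1.81e-05). Abca1, a cholesterol exporter, was not called there (-0.41, adjusted p = 0.234). In Irgm_IFNAR-KO against Irgm1-KO, 3 of the 5 were lower and none higher (21.3% and 21.5% of all). In Irgm1KO controls against WT controls 1 of the 5 was higher and 2 were lower (27.3% and 26.1% of all): Nr1h3 changed by 1.53 (SE 0.16, adjusted p = 1.22e-06), Abca1 by -1.62 (SE 0.20, adjusted p = 6e-06) and the exporter Abcg1 by -0.42 (SE 0.15, adjusted p = 0.0255). With fenofibrate 4 of the 5 fell in Irgm1KO and 4 in WT cells, where 22.2% and 16.9% of all tested genes were called lower. Abca1 was at 8.97, 6.75, 7.63 and 8.09 CPM with fenofibrate and 70.2, 68.4, 58.7 and 60.8 CPM in controls in Irgm1KO cells. It was at 39.8, 43.2, 49.8 and 20.6 CPM with fenofibrate and 199.7, 201, 227 and 165 CPM in controls in WT cells. Neither pair of groups overlapped, with -3.04 (SE 0.21, adjusted p = 4.61e-08) in Irgm1KO and -2.37 (SE 0.20, adjusted p = 1.64e-06) in WT, and the effects on Abca1 were not shown to differ (adjusted p = 0.0848). In the interaction test 2 of the 5 were lower in Irgm1KO than in WT and none higher (14.7% and 14.9% of all). The median over the 5 was -0.67.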

How the data were processed

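Whole-number counts per Ensembl gene, not normalised, were deposited by the authors in 1 table per experiment. The tools STAR, fastp and DESeq2 and the build GRCm39 are named, per the submitters' processing notes. Their versions and roles, the counter, its annotation and whether it used strand were not given in the sources used here. The kit was Kapa mRNA HyperPrep, per the labels' protocols, and the labels name sequencing kits of 100 cycles (first experiment) and 50 cycles (second). The first table lists only genes with at least 10 counts in some library. Total counts ran from 48.7 to 70.5 M and from 82.4 to 120.8 M, and all 42 pairs of libraries within groups differed by more than counting noise (chi-square per degree of freedom of 21.3 or more).

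Tests used edgeR 4.0.16, with limma 3.58.1, under R 4.3.3. The filter was filterByExpr with a minimum count of 10 and a minimum total of 15. Libraries were scaled by TMM and fitted with all groups of an experiment in 1 robust quasi-likelihood model (biological coefficient of variation 0.172 and 0.12). Adjustment was by Benjamini-Hochberg over all tested genes, with a threshold of 0.05. The standard error is the log2 fold change divided by the square root of F. Alternatives were DESeq2 1.42.0 (Wald test and size factors), other low-count filters, log2 Xist as a covariate, the most abundant gene left out, contrast groups alone, a replicate block, and each library left out. On simulated counts for the first experiment's Irgm1-KO contrast, 72 of 99 genes changed by 1 on the log2 scale were called, and 19 of 100 changed by 0.5. For the second experiment's Irgm1KO contrast these were 84 of 98 and 57 of 98. There were 6 and 7 false calls. Only these few of 13842 and 15218 genes were changed, while 40.4% and 53.4% of genes were called in the data. The adjusted threshold was thus stricter in the simulation, and its counts do not measure power in the data.

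Replicate numbers of the titles paired fenofibrate and control libraries within each genotype of the second experiment: deviations of same-numbered libraries correlated with r from 0.524 to 0.738 (WT) and from 0.383 to 0.596 (Irgm1KO). They did not pair genotypes (r from -0.397 to -0.0617 between controls, and from -0.673 to 0.712 in the first experiment).

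All 30 members are named, with Irgm1 and Ifnar1, and up to 3 genes of each further list with the smallest p in Irgm1-KO against WT; other genes were added where a count called for it. The list of degradation factors is not reported here. The members and lists were chosen with earlier results of these data known. Exon lengths and overlaps came from GENCODE M21 (GRCm38), which is not the files' build, so no positions were taken from it.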

Additional observations from a re-analysis of the deposited data

Results flagged for a closer look

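Libraries far from the other 3 of their group were found in 8 of 210 sets of 4 libraries, by a test that chance trips in about 1 of 20. In Irgm1KO with fenofibrate, replicate 2 was low for Cyp51 (28 CPM, others 32.0 to 32.4), Hsd17b7 (5.04 CPM, others 7.66 to 8.19) and Mbtps2 (34.9 CPM, others 48.9 to 51.2), and replicate 4 was high for Srebf2 (116 CPM, others 111 to 112). Irgm1-KO replicate 3 was low for Soat1 (275 CPM, others 331 to 339), and Irgm_IFNAR-KO replicate 4 was low for Scap (38.4 CPM, others 43.3 to 43.8). WT control replicate 2 was low for Scap (62.2 CPM, others 67.4 to 67.7), and WT fenofibrate replicate 2 was high for Hmgcs1 (48.5 CPM, others 41.7 to 42.7).

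The fenofibrate effect differed between genotypes for 21 genes, in the interaction test (Irgm1KO minus WT, log2). All 21 were higher in Irgm1KO, while 14.9% of all tested genes were higher and 14.7% lower. Among precursor enzymes the difference was 1.62 for Idi1, 1.21 for Fdps, 1.04 for Pmvk, 1.02 for Acat2, 0.86 for Fdft1 and 0.76 for Mvd. Among ring enzymes it was 1.53 for Sqle, 1.47 for Tm7sf2, 1.42 for Cyp51, 0.95 for Lbr, 0.58 for Hsd17b7, 0.58 for Ebp, 0.42 for Sc5d, 0.42 for Dhcr7, 0.35 for Lss and 0.35 for Msmo1. Among the control and transport genes it was 1.97 for Stard4, 0.84 for Srebf2, 0.69 for Insig1, 0.21 for Scap and 0.21 for Mbtps1. The calls of Hsd17b7, Scap and Mbtps1 were lost when single libraries were left out.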

How the results depend on the processing

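No value of the 30 genes that passed the test changed sign under the alternatives run. The number called in Irgm_IFNAR-KO against WT was 6 (12.2% of all tested genes), and 14 with log2 Xist as a covariate (31.7% of all). It was 10 without the 3 libraries of lowest Xist (16.7% of all), a setting chosen after seeing the data. The other counts stayed within 1.5 times. Without 1 library at a time the number called ran from 19 to 23 (Irgm1-KO against WT), 20 to 22 (Irgm_IFNAR-KO against Irgm1-KO), 4 to 9 (Irgm_IFNAR-KO against WT; 4 without Irgm_IFNAR-KO replicate 1 or 3, 9 without WT replicate 2), 23 to 25 (Irgm1KO against WT controls), 25 to 29 (fenofibrate in Irgm1KO), 9 to 11 (fenofibrate in WT), 19 to 23 (interaction) and 13 to 19 (Irgm1KO with fenofibrate against WT controls). In the same order the share of all tested genes called ran from 34.3% to 43%, 36.8% to 44.2%, 8.74% to 12% and 48.8% to 50.7%. For fenofibrate in Irgm1KO and in WT it was 39.4% to 47.3% and 28.4% to 32.3%. It was 24.9% to 34.8% for the interaction and 42.5% to 47% for Irgm1KO with fenofibrate against WT controls. With a replicate block the paired contrasts called 28 (fenofibrate in Irgm1KO), 14 (fenofibrate in WT) and 24 (interaction). Of all tested genes they called 53%, 43.7% and 38.3%. The unpaired ones called 19 (Irgm1-KO against WT), 23 (Irgm_IFNAR-KO against Irgm1-KO), 6 (Irgm_IFNAR-KO against WT), 24 (Irgm1KO against WT controls) and 15 (Irgm1KO with fenofibrate against WT controls). Their shares of all tested genes were 37.4%, 40.3%, 9.98%, 53% and 47.9%. Ggps1 in Irgm1-KO was the one call lost with the block. With contrast groups alone, Ggps1 (Irgm1-KO against WT) and Sc5d (Irgm_IFNAR-KO against WT) were no longer called (adjusted p = 0.0977 and 0.0682). Npc2 (fenofibrate in WT, adjusted p = 0.0612) and Lbr (fenofibrate in Irgm1KO, adjusted p = 0.0686) were also lost. With no low-count filter the calls of Mbtps1 (fenofibrate in WT, and interaction), Lbr (fenofibrate in Irgm1KO), Scap (interaction) and Nsdhl (Irgm1KO with fenofibrate against WT controls) were lost. No scaling moved the median of all genes by over 0.05. Idi1 and Fdps in the first experiment rest on few counts, so small changes in them were not detectable at this depth.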
